A study of Mus musculus with 15 samples.

Results

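The Gata genes encode a family of 6 transcription factors, Gata1 to Gata6, and were examined for signals of the Polycomb system in mouse embryonic fibroblasts. Members were all intervals of 3 deposited lists, of EZH2, the FLAG epitope and H3K27me3, whose nearest edge lay within 40 kb of 1 position per gene, given to the nearest 10 kb in build mm9. This gave 7 of 2466 intervals, of which 3 were EZH2, 1 was FLAG and 3 were H3K27me3. They came from chromatin immunoprecipitation with sequencing, with 1 library per antibody, and a list gives only where signal was called. All 3 libraries came from EED-floxed cells in which a lentivirus stably expressed wild-type EZHIP. The H3K27me3 list is named as residual H3K27me3, and it is from these EZHIP-expressing cells. The labels name no drug for these cells and place Cre treatment, followed by choice of a single clone, in the EED knockout line. No source used here names the promoter driving EZHIP. The FLAG signal is taken as tagged EZHIP, because the design names EZHIP as a profiled target. The series also holds 12 libraries from cells under DMSO or Tazemetostat, from EED knockout cells and from cells with EZHIP M406E, which were not analysed here. The labelled cell type could not be checked, since interval positions carry no marker expression.

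GATA proteins are zinc-finger factors that bind the DNA word GATA. Gata1, Gata2 and Gata3 are best known from blood, where Gata1 drives red cell and megakaryocyte genes, Gata2 maintains stem and progenitor cells, and Gata3 directs T cell development. Gata4, Gata5 and Gata6 act in the heart, endoderm and gonads. Genes of this kind are classic targets of PRC2, the complex whose catalytic subunit EZH2 places methyl groups on lysine 27 of histone H3, and EZHIP inhibits that complex. The mark is typically found at CpG-rich promoters of lineage genes that a cell does not use.

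The 250 bases before the start of 3 Gata genes are shown because they hold the contrast in CpG content among the members with a RefSeq promoter. Gata5 had intervals of all 3 lists nearby, Gata3 had none, and Gata1 had an interval only near the limit of its window. CpG dinucleotides are in capitals, and the sequences and their coordinates are from RefSeq, build GRCm38.p6. These coordinates cannot be compared with those of the intervals, which are in mm9.
Gata5 (chr2:180334680-180334929, minus strand): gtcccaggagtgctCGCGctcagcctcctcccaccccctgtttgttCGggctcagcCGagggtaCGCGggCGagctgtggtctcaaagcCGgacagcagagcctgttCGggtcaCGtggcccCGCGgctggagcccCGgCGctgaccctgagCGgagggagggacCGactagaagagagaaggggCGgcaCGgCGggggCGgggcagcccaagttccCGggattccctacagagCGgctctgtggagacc
Gata3 (chr2:9878601-9878850, minus strand): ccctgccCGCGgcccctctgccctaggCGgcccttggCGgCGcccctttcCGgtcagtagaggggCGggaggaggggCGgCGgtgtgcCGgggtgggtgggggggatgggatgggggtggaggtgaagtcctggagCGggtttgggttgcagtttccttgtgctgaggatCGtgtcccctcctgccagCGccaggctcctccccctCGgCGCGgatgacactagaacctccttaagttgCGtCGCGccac
Gata1 (chrX:7967911-7968160, minus strand): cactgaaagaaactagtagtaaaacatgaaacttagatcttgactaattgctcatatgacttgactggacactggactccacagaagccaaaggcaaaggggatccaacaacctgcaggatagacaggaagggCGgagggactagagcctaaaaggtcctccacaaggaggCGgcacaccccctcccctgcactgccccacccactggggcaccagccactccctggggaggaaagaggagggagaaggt

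CpG content was lower at Gata1 than at Gata2, Gata3 and Gata5, and was similar at Gata5 and at Gata2 and Gata3, which had no interval nearby. RefSeq promoters were matched for these 4 of the 6 genes, with 5 starts in all, and not for Gata4 and Gata6. The promoter of Gata5 held 22 CpG, more than 85.2% of 32851 promoters of the same length. Gata2 held 22 CpG at 1 start and 24 at the other. Gata3 held 19, above 80.3% of promoters. Gata1 held only 2, against a median of 6 over all promoters. The ratio of observed to expected CpG ran from 0.63 at Gata3 to 0.78 at Gata2 and was 0.11 at Gata1, beside a median of 0.37. GATA binding words of the form AGATAA, with A or T as the opening letter and A or G as the closing letter, were looked for on both strands, and only 1 of these words can match at a given place on a strand. None of the 5 Gata promoters held one, whereas 26.5% of all promoters did, which says only that these letters are not in this window.

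**Figure D1:**
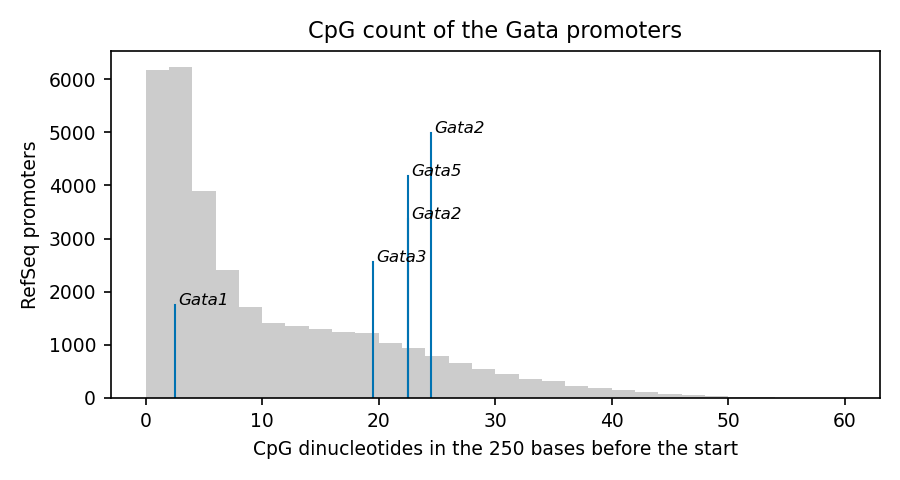
Number of RefSeq promoters (y axis) by CpG count in the 250 bases before the start (x axis, bins of 2 CpG), with lines at the 5 Gata starts. Gata1 stands at 2 CpG, and the starts of Gata2, Gata3 and Gata5 stand between 19 and 24.

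EZH2 and H3K27me3 were listed near Gata1, Gata4 and Gata5, and FLAG near Gata5 only. Gata2, Gata3 and Gata6 had no interval of any list within 40 kb, nor within 150 kb. Thus 3 of 6 genes had EZH2 and 3 of 6 had H3K27me3 nearby. Of 246407 positions spaced every 10 kb between the outermost intervals of each chromosome, 2.88% had an EZH2 interval within the same distance, 3.73% had H3K27me3 and 1.39% had FLAG. All 3 signals were near 1 gene of 6, beside 1.35% of positions. The positions include sequence far from any gene, so these shares are not those of genes in general. Gata6 itself lies outside the span that was sampled, as no list has an interval on its lower side. Of the 3 occupied loci only Gata5 lay well inside the window. Distances are from 1 position per gene, and the extent of each gene in mm9 was not used. An interval far from the position, as at Gata4, may therefore still lie over or close to the gene. The nearest edges at Gata4 and Gata1 were 37.6 and 38.4 kb away for EZH2, and the first intervals outside the window were 59.0 kb from Gata4 and 59.2 kb from Gata5. Because positions are rounded, they were also moved by 5 kb, which removed Gata4 in one direction and Gata1 in the other.

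**Figure D2:**
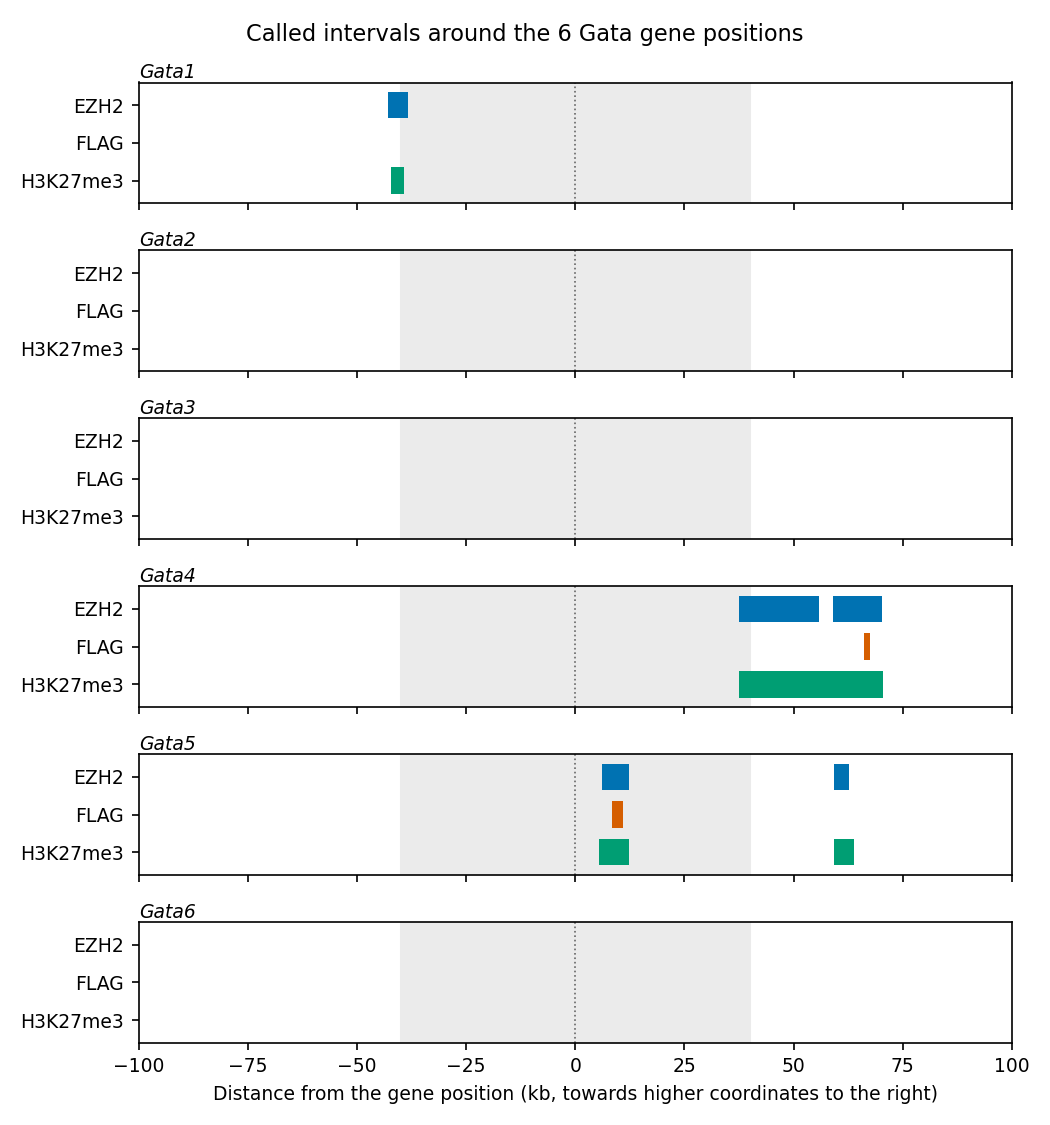
Intervals of EZH2, FLAG and H3K27me3 around each Gata gene position, as distance in kb (x axis), with the 40 kb window shaded. Only the Gata5 intervals lie well inside the window, and the panels of Gata2, Gata3 and Gata6 are empty.

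Gata5 was the only member with a FLAG interval within 40 kb, beside EZH2 and the mark. EZH2 covered 6199 bp of chromosome 2 from 180066001 to 180072199. FLAG covered 2599 bp from 180068401 to 180070999. H3K27me3 covered 6999 bp from 180065401 to 180072399. The 3 intervals were thus nested, with FLAG innermost and H3K27me3 outermost. EZH2 reached 2400 bp past FLAG on the lower side and 1200 bp on the upper side, beside a median of 1800 bp per side over the 399 EZH2 and FLAG intervals that overlap only each other. The width ratio of EZH2 to FLAG was 2.39, and 33.6% of those pairs had a ratio at least as high. H3K27me3 passed the EZH2 edges by 600 bp and 200 bp, which is 3 steps and 1 step of the 200 bp grid on which the intervals lie. Reach past both edges was uncommon in the lists as a whole. Among 764 H3K27me3 and EZH2 intervals paired in this way, the mark extended past both edges in 45, or 5.89%, and the median edge of the mark lay inside EZH2, at -400 bp. The H3K27me3 to EZH2 ratio at Gata5 was 1.13, and 8.90% of pairs reached it.

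A second site with EZH2 and the mark but no FLAG lay beyond the window of Gata5, on the same side. There EZH2 covered 3399 bp from 180119201 to 180122599, and H3K27me3 covered 4599 bp from the same start to 180123799. Of all EZH2 intervals, 45.5% had FLAG and 22.6% were narrower than this one. In GRCm38.p6 the antisense gene Gata5os overlaps Gata5, and the nearest genes that do not overlap it are the noncoding Gm29943 and Gm52543. The nearest coding genes are Rbbp8nl and Slco4a1. Annotation of build mm9 was not used, so whether an interval lies over a promoter, exon or intron is not given.

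Gata4 had the widest EZH2 and H3K27me3 intervals of the family. Its EZH2 interval within the window spanned 18199 bp of chromosome 14 from 63857601 to 63875799, and 94.2% of EZH2 intervals were narrower. The H3K27me3 interval began at the same base and ran 32999 bp, to 63890599, the widest but 34 of 1126. It covered a second EZH2 interval of 11199 bp, from 63879001 to 63890199, which lay outside the window by the rule. The gap between these EZH2 intervals was 3201 bp and lay within the marked stretch. The mark thus ended at 0 bp from the outer edge of the EZH2 pair on the lower side and 400 bp beyond it on the upper side. The median edge was at -400 bp over H3K27me3 and EZH2 intervals that overlap only each other. Other stretches over 2 EZH2 intervals were not compared in this way.

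FLAG at the Gata4 domain lay over the narrower of the EZH2 intervals. It covered 1399 bp from 63886201 to 63887599, 66.2 kb from the gene position, and only 2.51% of FLAG intervals were narrower. The narrowest FLAG interval of the list had 1199 bp, so this call is near the lower limit of that list. FLAG took up 4.24% of the marked stretch at Gata4, compared with 37.1% at Gata5. The 18199 bp EZH2 interval had no FLAG, although FLAG was listed at 47 of the 52 EZH2 intervals of at least that width (90.4%, exact Clopper-Pearson 95% interval 79.0 to 96.8%, counting error only). It was thus 1 of 5 such wide intervals without FLAG. This rests on the gap between the EZH2 intervals, since joining intervals across gaps of up to 5 kb gave 1 EZH2 interval with FLAG at Gata4 and brought the share of Gata EZH2 intervals with FLAG from 33.3 to 66.7%. Neil2 is the nearest coding gene on the lower side of Gata4 in GRCm38.p6, and Blk is the nearest on the higher side.

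Gata1 had a modest EZH2 interval with a smaller marked stretch inside it, and no FLAG. EZH2 covered 4599 bp of chromosome X from 7497001 to 7501599, and H3K27me3 covered 2999 bp from 7497801 to 7500799. The edges of the mark lay inside those of EZH2 on each side, at signed distances of -800 bp. The mark lay inside both EZH2 edges, as in 49.5% of the 764 pairs, and its ratio of 0.65 was reached or undercut in 15.7%. Both intervals lay near the limit of the window, on the lower side of the gene position. In GRCm38.p6 the coding gene nearest to Gata1 on that side is Hdac6, which encodes a deacetylase. Gene positions in mm9 were not used, so the intervals could not be assigned to Gata1, Hdac6 or any other gene. FLAG was nearest at 4.12 Mb.

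**Figure D3:**
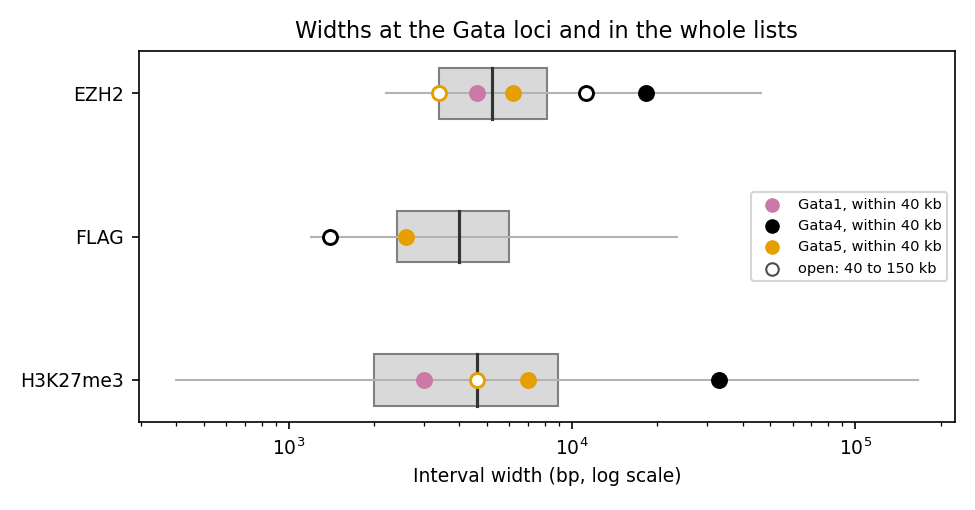
Widths of intervals at the Gata loci (points) over those of each whole list (x axis, bp, log scale; box from lower to upper quartile with the median, line from narrowest to widest). The filled Gata4 points lie at 18199 bp for EZH2 and 32999 bp for H3K27me3, right of both boxes.

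Across the members, widths spanned a broad range around the list medians. The EZH2 widths were 4599, 6199 and 18199 bp at Gata1, Gata5 and Gata4, beside a median of 5199 bp for 902 intervals. The H3K27me3 widths were 2999, 6999 and 32999 bp in the same order, beside a median of 4599 bp for 1126. The single FLAG interval within the window, at Gata5, had 2599 bp against a median of 3999 bp for 438. The order of the 3 genes was therefore the same for EZH2 and the mark.

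All 3 Gata EZH2 intervals overlapped H3K27me3 by at least 1 bp, and all 3 H3K27me3 intervals overlapped EZH2. With 3 intervals the exact Clopper-Pearson 95% interval runs from 29.2 to 100%. Over the whole lists 95.2% of EZH2 intervals carried the mark, and 71.7% of marked intervals carried EZH2. The single FLAG interval within the window overlapped EZH2 and H3K27me3 by at least 1 bp, as did 96.6% and 98.6% of FLAG intervals. FLAG overlapped 1 of the 3 Gata EZH2 intervals, or 33.3% (0.84 to 90.6%), against 45.5% of all EZH2 intervals. FLAG overlapped the H3K27me3 intervals of Gata4 (in the stretch beyond 40 kb) and Gata5, or 2 of 3, against 36.1% of all H3K27me3 intervals. So few intervals cannot tell the Gata loci from the rest of the lists.

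FLAG was listed more often at wider EZH2 intervals in the whole list, so each locus is set beside intervals of similar width. Each of these sets includes the Gata interval itself. Among 228 EZH2 intervals within 20% of the width at Gata1, 29.4% had FLAG, and Gata1 had none. Of the 224 near the width at Gata5, 69.2% had FLAG, as Gata5 did. FLAG was present at 86.6% of 97 near the width of the outer Gata4 interval, which had it. For the wider Gata4 interval the share was 90.6% of 53, and that interval had none.

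**Figure D4:**
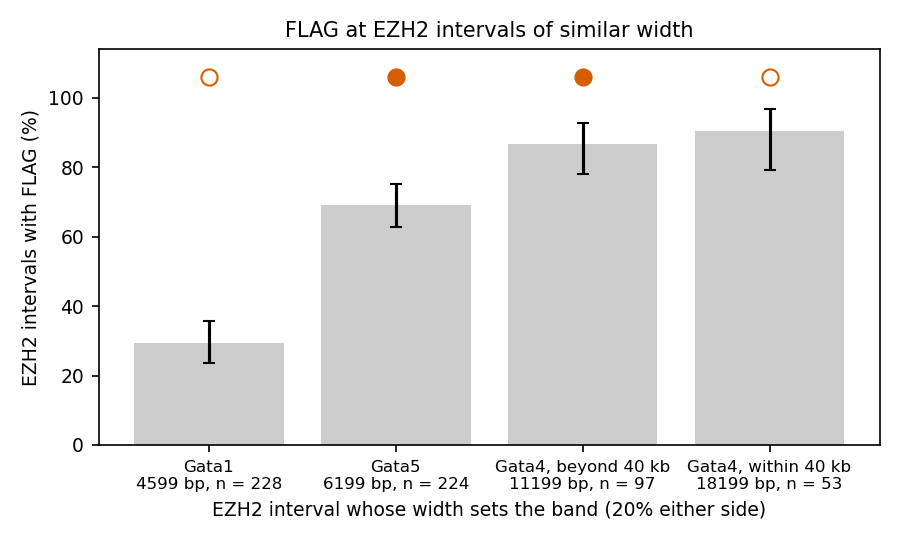
Share of EZH2 intervals with FLAG (y axis, %; bars with exact 95% intervals) among those within 20% of the width of each EZH2 interval at Gata1, Gata5 and Gata4 (x axis), with a filled circle where that interval itself had FLAG. Gata4 within 40 kb has an open circle above a share of 90.6%. Each share counts the Gata interval itself.

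The 3 genes without intervals differed in how far away the nearest signal lay. Around Gata2, all 3 lists had their nearest interval at 464 to 465 kb on the lower side, with EZH2 of 7799 bp, FLAG of 5799 bp and H3K27me3 of 7399 bp. At Gata3, EZH2 of 7599 bp and H3K27me3 of 7999 bp began at 500 kb on the higher side, and FLAG was nearest at 9.56 Mb. Gata6 was the most isolated, with EZH2 first at 12.1 Mb, FLAG at 14.9 Mb and H3K27me3, an interval of only 399 bp, at 3.21 Mb. Such distances were not computed for other positions, of which 2.88% had EZH2 within 40 kb, 1.39% FLAG and 3.73% H3K27me3. Lack of a nearby interval was thus the usual state. None of the 3 lists had an interval on the lower side of Gata6 on chromosome 18, and EZH2 and FLAG had none below Gata3 on chromosome 2. A gene missing from a list had no called interval there, and signal below the authors' threshold cannot be seen. The mark was listed only as residual H3K27me3 in cells with EZHIP, so its state without EZHIP is not shown.

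**Figure D5:**
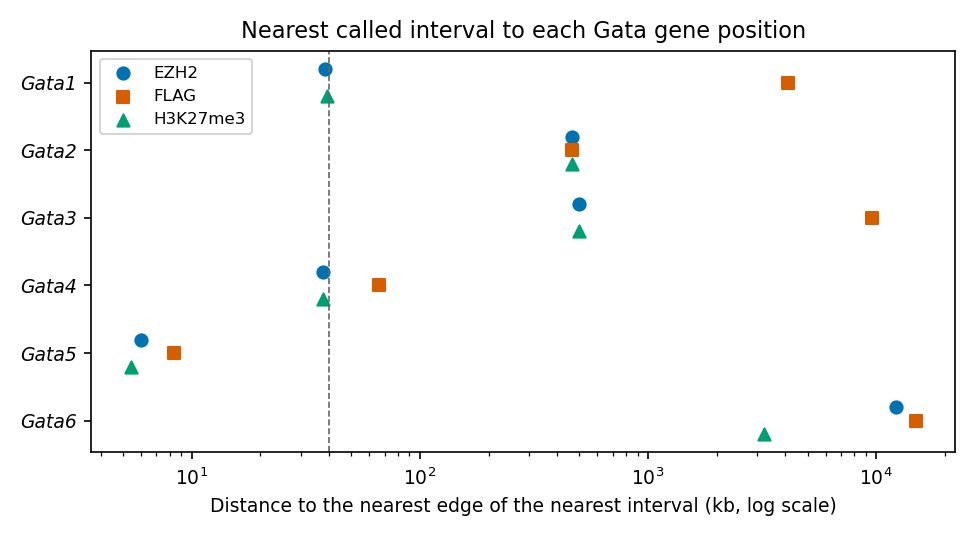
Distance from each Gata gene position to the nearest interval of each list (x axis, kb, log scale), with a dashed line at 40 kb. Gata5 has all 3 lists left of the line, Gata1 and Gata4 have EZH2 and H3K27me3 just left of it, and Gata2, Gata3 and Gata6 have none.

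In gene order, Gata2 sits between the coding genes Rpn1 and Dnajb8, Gata3 between Celf2 and Taf3, and Gata6 between Mib1 and Rbbp8 in GRCm38.p6. Antisense or noncoding genes overlap several members there, among them Gm38708 at Gata2, 9230102O04Rik at Gata3 and Gata6os at Gata6.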

How the data were processed

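Per the labels' protocols, fixed chromatin was cut by micrococcal nuclease into mono-nucleosomes before immunoprecipitation, and NEB Next Ultra libraries were made. Build mm9, Bowtie 1.0.0 and deepTools are named in the submitters' processing notes. For the peak caller, its thresholds, the control and the depth, a statement was not given in the sources used here. Deposited lists hold start and end positions in bp and no score, with 1 list per library and 1 library per group, so there are no replicates and no test of conditions. Starts are printed counted from 1.

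Groups were taken from sample titles. Gene positions came from the rule that defines the members. Members and lists were chosen with earlier results of these data known. The named genes are all 6 members, with their nearest neighbours in RefSeq gene order. GATA partner genes were not placed, as annotation of mm9 was not used. Overlap needed 1 bp. Intervals for shares are exact Clopper-Pearson at 95%. Python 3.11.15, NumPy 2.4.6, SciPy 1.17.1 and pandas 2.3.3 were used. Overlap counting was tested on simulated data, where 100% of planted overlaps were found among 400 simulated intervals. Each planted overlap lay fully inside the other interval, so partial overlaps were not tried. Alternatives covered the window, the overlap, narrow intervals, joined gaps and leaving out each locus. A shift of positions by 5 kb was added after the data were examined.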

Additional observations from a re-analysis of the deposited data

How the results depend on the processing

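Which intervals counted as near a Gata gene depended on the window. With 20 kb, or with the midpoint required within 40 kb, only Gata5 stayed, giving 1 EZH2 interval of 6199 bp, 1 H3K27me3 interval of 6999 bp and a FLAG share of 100%. With 60 kb and with 100 kb, EZH2 had 5 intervals covering 43595 bp, against 3 and 28997 bp as reported. With 100 kb, FLAG had 2 intervals covering 3998 bp with a median of 1999 bp, and 2 loci held all 3 signals. Joining gaps of up to 5 kb raised the FLAG share to 66.7%. Leaving out Gata5 brought the FLAG share of EZH2 intervals to 0%, as 0 of 2. Moving all positions 5 kb lower, an alternative chosen after seeing the data, lost Gata4 and left 10798 bp of EZH2 and 9998 bp of H3K27me3. Moving them 5 kb higher lost Gata1. The median edge of H3K27me3 relative to EZH2 was 100 bp and turned to -300 bp without Gata4, -400 bp without Gata5 and -300 bp with positions 5 kb lower, so the Gata loci gave no stable sign. Of 150 alternative values for 14 results, 129 stayed within loose limits. The limits were 1.5 times for counts and covered bp, the exact interval for shares and the range of members for medians. A median over only some of the members always lies within that range, and the exact interval for 3 intervals is wide. The number of values within the limits therefore does not show that the results are stable. Every Gata EZH2 interval overlapped H3K27me3, and the reverse, under each of the 16 alternatives that gave a value. Most of these could give nothing else. The 20 kb window, the midpoint rule and leaving out a locus only took some of the reported intervals. Overlap within 1 kb and joined gaps only loosened the overlap. The lists carry no scores, so a stricter threshold could not be tried, and read depth is unknown. No paired analysis was possible because each group has 1 library.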

Other observations

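Gata4 belonged to a small class of marked stretches over more than 1 EZH2 interval, a class looked at after the values at Gata4 were seen. Of 1126 H3K27me3 intervals, 43 overlapped 2 or more EZH2 intervals by at least 1 bp and 37 overlapped exactly 2. FLAG was listed at both EZH2 intervals in 8 of the 37, at neither in 7 and at 1 of the 2 in 22. Among these 22, FLAG lay on the wider EZH2 interval in 18 and on the narrower in 4, and Gata4 was 1 of the 4. At Gata4 the EZH2 interval with FLAG had 11199 bp and that without had 18199 bp. This placing rests on 1 FLAG interval of 1399 bp, near the list minimum of 1199 bp. The other 3 stretches of that kind lay on chromosome 2 from 164773001 to 164796399, on chromosome 5 from 67605601 to 67624999 and on chromosome 9 from 64987801 to 65012599. Their EZH2 intervals with FLAG had 3999, 8399 and 4199 bp, against 4999, 9599 and 4599 bp for those without. The difference in width at Gata4, 7000 bp, exceeded those at the other 3, which were 1000, 1200 and 400 bp.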
